A study of Tupaia belangeri with 15 samples.

Results

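The voltage-gated sodium channel subunits of the tree shrew (TS, Tupaia belangeri) retina were examined with 8 genes chosen by name: the alpha subunit genes SCN1A, SCN2A, SCN3A, SCN8A and SCN9A and the beta subunit genes SCN2B, SCN3B and SCN4B. All 8 were found by their symbol among the 83605 features of the deposited tables, and 7 of them had counts. The study isolated nuclei from frozen retinas and sequenced 1 library of the 10x Genomics platform per retina, and the tables give unique molecular identifiers (UMIs), the counts of captured RNA molecules. Of the 15 retinas, 5 came from animals in infancy, 5 from mature and 5 from senile animals, and the labels name no other treatment, allele, age or sex. Senile animals were supplied by another institute than infant and mature ones, so senescence and source cannot be told apart. By the study's methods the retinas of a stage came from different animals, so p-values measure the spread between these animals.

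Voltage-gated sodium channels open on depolarization and carry the rising phase of the action potential. An alpha subunit forms the pore and can conduct alone, and beta subunits are single-pass membrane proteins that modify its gating and anchoring. In neurons the channels cluster at the axon initial segment and at nodes of Ranvier, and in the retina, retinal ganglion cells (RGCs) send spikes down the optic nerve, whereas many other retinal neurons signal with graded potentials. SCN1A, SCN2A, SCN3A and SCN8A are the alpha genes best known from the brain, SCN3A for its expression early in development and SCN8A for the mature initial segment and nodes, and SCN9A is best known from pain-sensing neurons.

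In the files the genes carry the identifiers TSDBGID.3869 (SCN1A), TSDBGID.3870 (SCN2A), TSDBGID.4635 (SCN3A), TSDBGID.24210 (SCN8A), TSDBGID.4640 (SCN9A), TSDBGID.5448 (SCN2B), TSDBGID.26555 (SCN3B) and TSDBGID.5446 (SCN4B). Over all deposited barcodes SCN8A had 86013 UMIs, SCN3A 81786, SCN9A 49993, SCN2A 43084, SCN3B 17826, SCN2B 6643 and SCN1A 4013. SCN4B was listed at 0 in all 15 retinas, as was GAD2, a GABA-synthesizing enzyme of many ACs, so no level is given for it. The annotation also holds 2 numbered copies of SCN1A, and the one named SCN1Ali2 had 137002 UMIs against 13097 for SCN1Ali1. By its identifier SCN1Ali2 lies next to SCN9A, and SCN1A lies next to SCN2A. Numbered copies can share reads with SCN1A, so values of all 3 features are uncertain and the copies are given beside it in the main comparisons. Antisense features were listed for SCN1A (3595 UMIs), SCN2B (3631), SCN9A (1150) and SCN3B (536), and 4 for SCN3A (25 to 72 UMIs each), and how strand was used in counting is not given in the sources used here.

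Each library counted between 13429873 and 58734300 UMIs over 4269 to 9856 barcodes, of which 111825 nuclei were kept in all. Each nucleus was assigned to a class by its marker genes, none of them a sodium channel gene, and 60345 nuclei received a class, which is named here as the cells its markers are known from: 14672 cone nuclei, 942 rod nuclei, 15250 bipolar cell (BC) nuclei, 1113 horizontal cell (HC) nuclei, 14284 amacrine cell (AC) nuclei, 4939 RGC nuclei, 7502 Müller cell nuclei, 943 astrocyte nuclei and 700 microglia nuclei. The 51480 nuclei without a class held between 35.3% (SCN2B) and 53.0% (SCN9A) of the kept UMIs of the genes. Clusters named by the same markers gave the same class for 98.15% of 56269 nuclei named both ways, with the lowest shares in HCs (85.29%) and astrocytes (92.89%). Clusters named 28170 BC and 25389 AC nuclei, far above the counts given above. They named 15570 cone and 5703 RGC nuclei, closer to those counts. No pair of retinas shared more than 0.422% of its barcodes. File headers name Cell Ranger 6.1.2 for 7 retinas (Infancy 1 to 3, Mature 1 and 2, Senile 1 and 2), called the older version group below, and 7.0.1 for 8 retinas, the newer group.

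RGCs had the highest level of each of the 5 alpha genes and of SCN2B among the 9 classes, and SCN3B did not follow that order. Levels are given as CPM, the UMIs of a gene scaled by all UMIs in the nuclei of a class, as mean ± SD over 15 retinas, and are not scaled for gene length, so they compare classes for 1 gene and not genes with each other. Within retinas, 6 of the 7 genes with counts were higher in RGCs than in ACs and SCN3B was lower, by a 2-sided exact sign-flip permutation test of log2(CPM + 1) adjusted over 16936 features. In the same test 25.1% of all features were higher in RGCs than in ACs and 30.9% were lower. Against cones all 7 genes were higher in RGCs in 15 of 15 retinas. By the same test 40.6% of 16898 features were higher in RGCs than in cones.

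SCN2A, an alpha gene of unmyelinated axons and early initial segments, had its highest mean level in RGCs. Its lowest, median and highest levels over the 15 retinas were 258, 315 and 440 CPM in RGCs. The mean was 329 ± 52.0 CPM in RGCs, 123 ± 13.3 in ACs, 89.2 ± 34.4 in HCs, 25.2 ± 7.79 in BCs and 6.12 ± 3.12 in cones (SD, n = 15). RGCs exceeded ACs by 1.40 in log2 units, in all 15 retinas (adjusted p = 0.000272 by the exact permutation test, from the smallest raw p that 15 retinas allow, 6.1e-05). ACs exceeded BCs by 2.30 in 15 of 15 retinas (adjusted p = 0.000194, exact). By the same test 37.7% of 16686 features were higher in ACs than in BCs. HCs, which had few nuclei, were below ACs by 0.58 (12 of 15 retinas, adjusted p = 0.00801, exact), where 34.7% of 16612 features were higher in ACs.

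SCN3A spanned 274 to 735 CPM in RGCs, with a median of 439. Its mean level was 478 ± 133 CPM in RGCs, 198 ± 29.2 in ACs, 169 ± 44.4 in BCs, 159 ± 52.0 in HCs and 9.44 ± 6.98 in cones (SD, n = 15). The means of ACs, BCs and HCs lay close together, and that of cones lay far below them. RGCs exceeded ACs by 1.23 in 15 of 15 retinas (adjusted p = 0.000272, exact), and ACs exceeded BCs by 0.25 in 11 of 15 (adjusted p = 0.00594, exact). BCs and HCs did not differ beyond their spread (0.12, SD 0.53, adjusted p = 0.506, exact).

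SCN8A was present in photoreceptors as well as in the interneurons of the retina. In RGCs it ranged from 281 to 454 CPM with a median of 376, and its mean was 374 ± 47.9 CPM there against 210 ± 23.9 in ACs (SD, n = 15). The difference of 0.82 was present in 15 of 15 retinas (adjusted p = 0.000272, exact). Below RGCs the classes lay close together, with means of 178 ± 63.4 CPM in rods (n = 14), 168 ± 23.0 in BCs, 155 ± 46.3 in HCs and 137 ± 15.8 in cones. BCs and HCs did not differ beyond their spread (adjusted p = 0.299, exact), whereas ACs were above BCs in 15 of 15 retinas by 0.32 (adjusted p = 0.000194, exact). Müller cells and astrocytes, which do not fire action potentials, were at 65.4 ± 24.7 and 54.7 ± 13.9 CPM. Markers of neurons were also counted in Müller cell nuclei, AC markers at a mean of 0.0783% of UMIs against 0.479% in ACs and BC markers at 0.201% against 2.02% in BCs, and the part of RNA carried over from other cells in the glial levels was not tested.

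The proportion of the alpha genes in cones was far from that in RGCs. Summed over retinas, cone nuclei had 8811 UMIs of SCN8A and 388 of SCN2A, a ratio of 22.7, and the ratio per retina ranged from 8.4 to 36.5 with a median of 27.4. In RGCs the ratio was 1.13 and ranged from 0.928 to 1.37, so the ranges of cones and RGCs did not overlap. It was 1.70 in ACs, 7.27 in BCs and 13.7 in rods, the last from 522 and 38 UMIs. Of all UMIs on SCN1A, its copies, SCN2A, SCN3A, SCN8A and SCN9A, SCN8A took 74.8% ± 11.5 in cones, 57.0% ± 16.3 in rods (SD, n = 14), 16.6% in RGCs, 19.8% in BCs and 24.4% in ACs. Cone nuclei also held RGC markers, at a mean of 0.0073% of UMIs against 0.208% in RGCs, and AC markers, at 0.0118% against 0.479% in ACs. The part of carried-over RNA in the low cone levels of SCN2A, SCN3A and SCN9A was not tested.

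SCN9A ranked RGCs first and BCs second. Its RGC levels spread widely, from 91.2 to 433 CPM with a median of 227, and the mean was 222 ± 102 CPM against 120 ± 48.2 in BCs, 84.1 ± 36.9 in ACs and 8.03 ± 7.08 in cones (SD, n = 15). RGCs exceeded BCs by 0.83 in 15 of 15 retinas (adjusted p = 0.000203, exact). By the same test 35.2% of 16894 features were higher in RGCs than in BCs. BCs exceeded ACs by 0.53 in 13 of 15 (adjusted p = 0.000601, exact), where 26.9% of 16686 features were higher in BCs. The copy SCN1Ali2, its neighbour by identifier, had the same order, with 785 ± 191 CPM in RGCs, 330 ± 55.7 in BCs and 219 ± 51.0 in ACs, and SCN1Ali1 was at 43.2 ± 12.9, 35.2 ± 16.0 and 18.4 ± 7.54 CPM in the same classes. The feature named SCN1A was at 20.0 ± 9.91 CPM in RGCs (12 to 48.4, median 16.5), 10.5 ± 7.19 in ACs, 7.49 ± 5.72 in BCs and 0.303 ± 0.376 in cones. Which of the features SCN1A, SCN1Ali1 and SCN1Ali2 carries the gene was not tested. RGCs exceeded ACs in SCN1A by 0.94 in 15 of 15 retinas (adjusted p = 0.000272, exact).

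The beta subunit genes SCN2B and SCN3B differed in where they were found. SCN2B, whose protein bonds covalently to the alpha subunit, had 57.3 ± 52.0 CPM in RGCs, 19.5 ± 15.9 in ACs, 17.2 ± 15.1 in HCs and 4.42 ± 2.79 in BCs (SD, n = 15). RGCs exceeded ACs by 1.36 in 15 of 15 retinas (adjusted p = 0.000272, exact), while ACs and HCs could not be separated (adjusted p = 0.493, exact). SCN3B, whose protein associates non-covalently, had 70.9 ± 35.9 CPM in ACs, 50.0 ± 20.4 in BCs, 38.4 ± 23.5 in HCs and 21.1 ± 10.0 in RGCs. In all 15 retinas RGCs held less of it than ACs, by 1.69 in log2 units (adjusted p = 0.000272, exact). HCs were above RGCs by 0.71 in 14 of 15 (adjusted p = 0.00257, exact), where 10.8% of 16735 features were higher in HCs. The highest mean of SCN3B, 97.6 ± 66.3 CPM, was in microglia, but it rested on 173 UMIs in all, with means of 63.4 CPM in older and 128 CPM in newer retinas, and did not differ from ACs (0.22, higher in 8 of 15 retinas, adjusted p = 0.675, exact). Per UMI of SCN2A, SCN3B had 0.07 in RGCs, 0.461 in ACs and 1.64 in BCs.

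**Figure D1:**
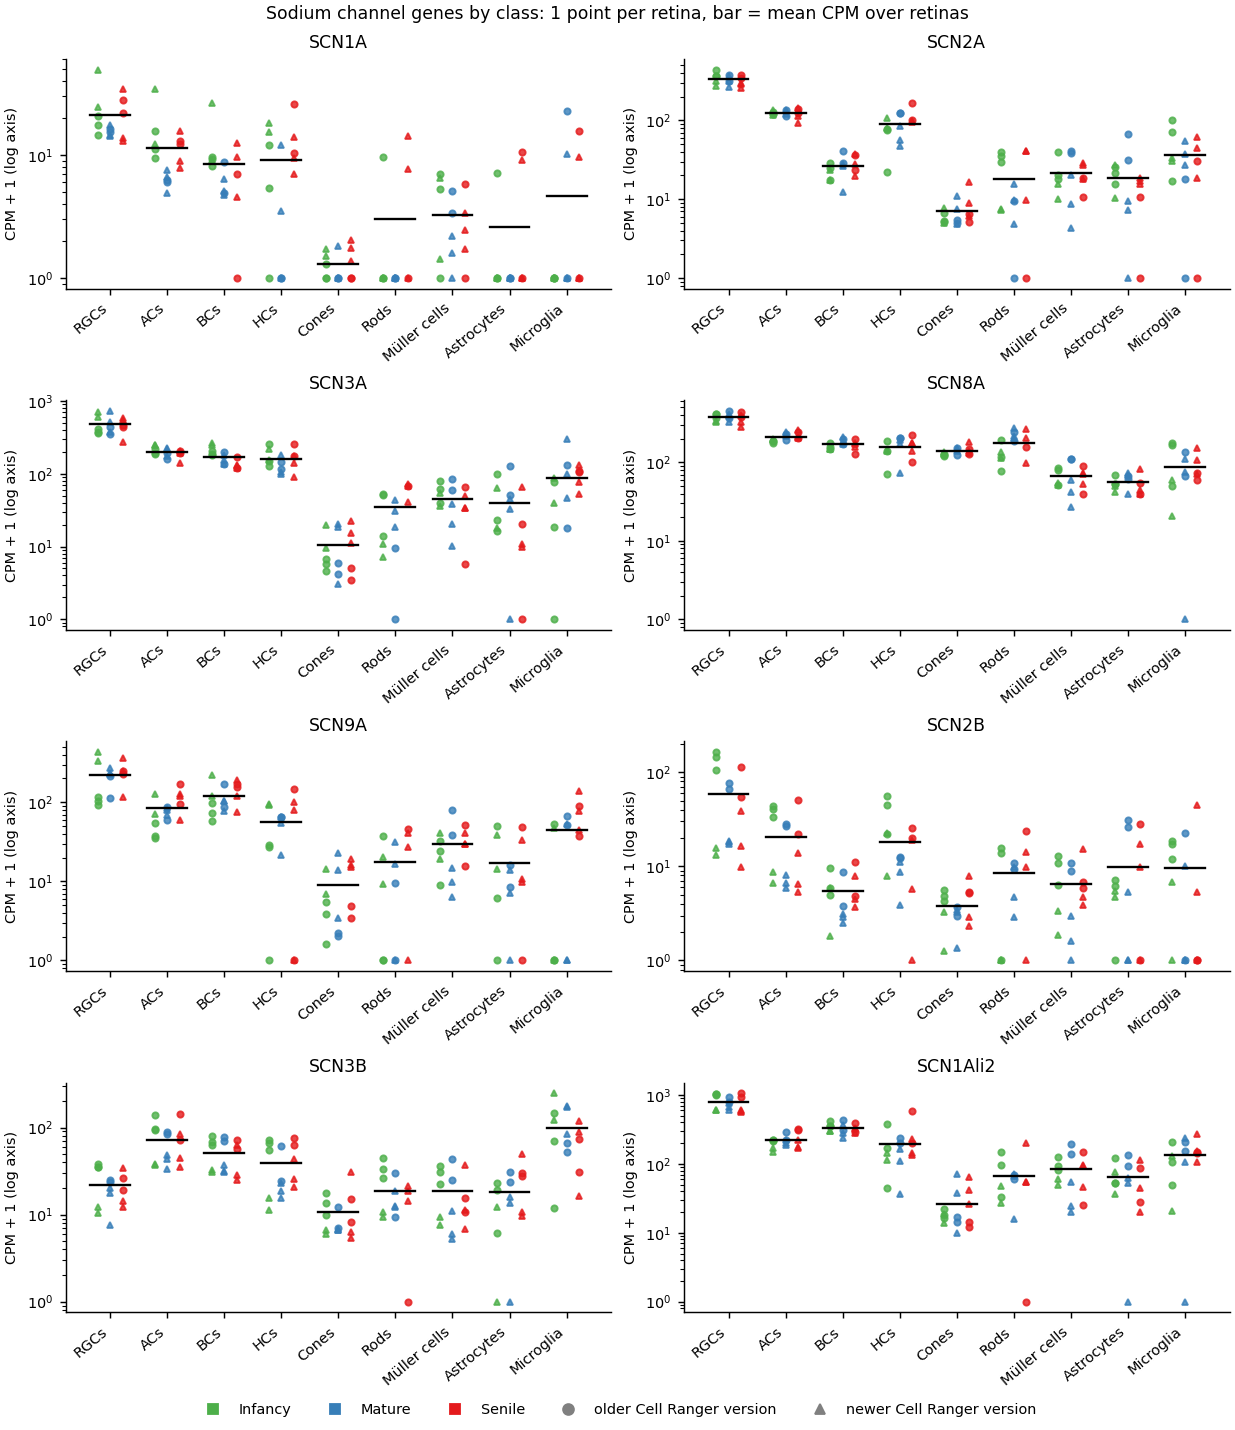
Levels of the 7 sodium channel genes with counts and of SCN1Ali2, in CPM + 1 on a log axis, by class on the horizontal axis, with 1 point per retina, coloured by stage and shaped by Cell Ranger version group, and a bar at the mean. RGCs stand highest for all but SCN3B, and SCN8A in cones stands at 137 ± 15.8 CPM, where SCN2A has 6.12 ± 3.12.

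Within ACs, SCN9A separated the transmitter types. GABAergic and glycinergic AC nuclei were split by their transmitter markers, and 3 pairs of subtypes were compared over 9 features (the 7 genes and 2 copies), of which 19 of 27 tests passed after adjustment over all features. SCN9A stood at 119.5 ± 49.6 CPM in GABAergic and 26.5 ± 23.0 in glycinergic ACs (SD, n = 15). This log2 difference of 2.31 was found in all 15 retinas (adjusted p = 0.000663, exact sign-flip permutation), where 13.9% of 16630 features were higher in GABAergic and 17.8% in glycinergic ACs. SCN3B was also higher in GABAergic ACs, by 0.58 in 14 of 15 retinas (adjusted p = 0.00102, exact). In the opposite direction, SCN2A was at 116 ± 18.3 against 148 ± 29.4 CPM, lower by 0.33 in 13 of 15 retinas (adjusted p = 0.0155, exact), and SCN8A was lower by 0.16 in 11 of 15 (adjusted p = 0.0106, exact). SCN1A, at 8.71 against 13.5 CPM, was lower by 0.74 in 11 of 15 (adjusted p = 0.027, exact), and by 0.44 without Senile 2. Its copies went the other way in 15 of 15 retinas, SCN1Ali2 at 269 against 142 CPM (0.92) and SCN1Ali1 at 24.8 against 7.26 CPM (1.74), both higher in GABAergic ACs (adjusted p = 0.000663, exact), so the direction for SCN1A holds for that feature alone. SCN3A and SCN2B did not pass (adjusted p = 0.113 and 0.503, exact). Adjusted over the 27 subtype tests alone, SCN3A did not pass in 12 of 15 tests that left out 1 retina, and passed in the others.

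Starburst ACs, the cholinergic interneurons of direction selectivity, held less of the alpha genes than GABAergic ACs without the cholinergic markers. They were taken from all ACs by those markers, and of the 1125 nuclei 466 were also named GABAergic, 203 glycinergic and 456 neither. They had 12.8 ± 12.2 CPM of SCN9A against 133 ± 53.4 in the 3906 GABAergic nuclei that were not starburst, a difference of -3.66 with the lower value in starburst ACs in 15 of 15 retinas (adjusted p = 0.0007, exact). In the same comparison 20.6% of 16316 features were lower in starburst ACs. SCN3A was at 59.8 against 217 CPM (-1.97), SCN2A at 42.9 against 127 (-1.87), SCN1A at 2.48 against 9.88 (-1.75), SCN8A at 130 against 217 (-0.80) and SCN3B at 58.3 against 80.5 (-0.49), and each of these passed. SCN8A kept the smallest difference of the alpha genes. The copies of SCN1A were also lower in starburst ACs, SCN1Ali2 at 53.7 against 297 CPM (-2.99) and SCN1Ali1 at 6.25 against 27.6 CPM (-2.66), and both passed. SCN2B, at 25.0 against 20.3 CPM, did not pass (adjusted p = 0.373, exact). With the GABAergic starburst nuclei alone, in 13 retinas with at least 10 of them, the 5 alpha genes stayed lower and passed, SCN9A by -4.71, SCN3B was at -0.17 and did not pass (adjusted p = 0.29, exact), and SCN2B was higher by 1.01 and passed (adjusted p = 0.0121, exact).

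ON and OFF BCs, which respond to light onset and offset, differed in SCN9A, while SCN2A and SCN8A did not pass. SCN9A was at 197 ± 74.3 CPM in ON BCs and 71.7 ± 36.4 in OFF BCs, higher by 1.54 in 15 of 15 retinas (adjusted p = 0.000887, exact), where 12.3% of 15970 features were higher in ON BCs. SCN3B was at 51.6 ± 20.2 against 41.3 ± 18.1 CPM (0.35, 12 of 15 retinas, adjusted p = 0.0259, exact). The copies moved with SCN9A, SCN1Ali2 by 1.58 and SCN1Ali1 by 1.73, both in 15 of 15 retinas. SCN8A stood at 177 and 162 CPM (0.10, SD 0.34, adjusted p = 0.543, exact). Without Senile 2 its difference was 0.17 and passed when adjusted over the 27 subtype tests alone (adjusted p = 0.0154, exact). SCN3A over all stages stood at 173 and 149 CPM (0.17, SD 0.32, adjusted p = 0.175, exact). Adjusted over the 27 tests, SCN3A did not pass in 13 of 15 tests that left out 1 retina, and passed in the others.

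**Figure D2:**
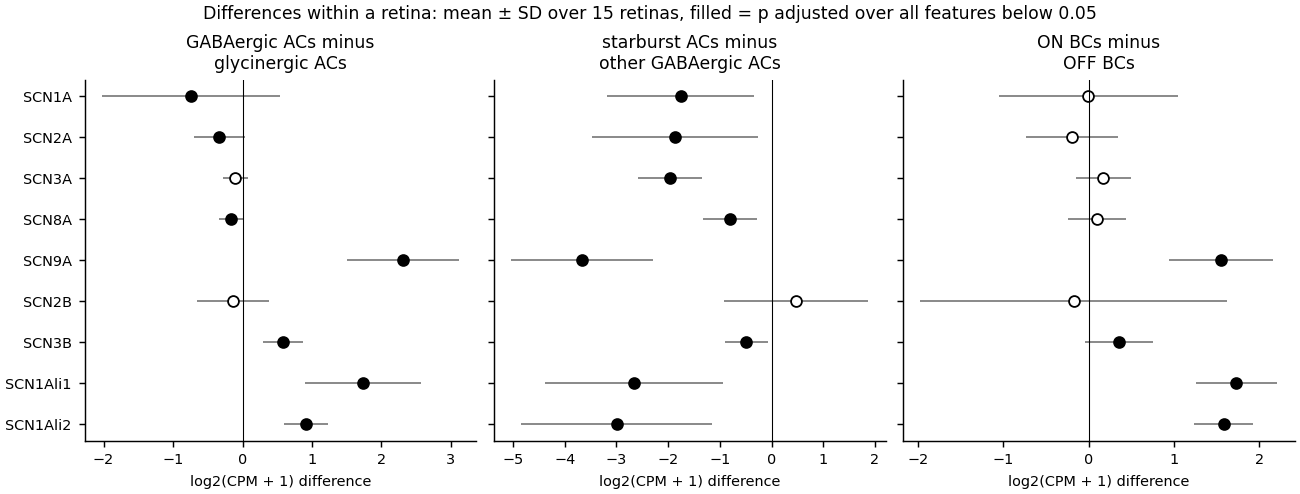
Differences of log2(CPM + 1) between subtypes within a retina, with the mean as a point and the SD over 15 retinas as a bar, for GABAergic against glycinergic ACs, starburst ACs against GABAergic ACs that were not starburst and ON against OFF BCs. SCN9A lies at 2.31, -3.66 and 1.54, and filled points passed after adjustment over all features.

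Stage was tested within each class with edgeR's quasi-likelihood test on UMIs summed per retina, with version group as a covariate and Benjamini-Hochberg adjustment over all features tested in the class. Of 40 tests of the genes per contrast, 1 passed between mature and infant retinas, 1 between senile and infant retinas and 0 between senile and mature retinas, against 7, 4 and 2 at an unadjusted p under 0.05 and 2, 1 and 0 calls with DESeq2. Both changes were decreases after infancy, SCN3A in BCs and SCN1A in ACs. Among all features of BCs, 0.809% passed between mature and infant, 1.1% between senile and infant and 0.00771% between senile and mature retinas. Among all features of ACs these shares were 0.764%, 1.18% and 0.00658%, and among those of RGCs 0.77%, 1.1% and 0%, where none of the 7 genes passed. No gene passed in the other classes, where the shares of all features called in the same 3 contrasts were 1.38%, 1.76% and 0.00688% in cones (6 genes tested), 0.379%, 0.506% and 0.0948% in rods (1 gene), 0.127%, 0.275% and 0% in HCs (5 genes), 0.695%, 0.877% and 0.0174% in Müller cells (6 genes) and 0.346%, 0.566% and 0% in astrocytes (1 gene). In microglia no gene could be tested, and 0.0637%, 0% and 0% of features were called. The genes' median log2 difference between senile and infant BCs was 0.05, and that of all features tested was -0.03. In whole retinas, where the makeup of classes enters the level and fewer cells of a type cannot be told apart from less RNA per cell, 0 of 7 genes passed in any stage contrast by edgeR (1, 1 and 0 at an unadjusted p under 0.05, and 1, 0 and 0 with DESeq2), beside 0.966%, 1.59% and 0.00358% of all features.

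SCN3A fell with stage in BCs. Its level in infant retinas 1 to 5 was 204, 184, 178, 247 and 263 CPM. In mature retinas 1 to 5 it was 195, 134, 180, 136 and 153 CPM. In senile retinas 1 to 5 it was 119, 167, 133, 120 and 128 CPM. All 5 senile retinas lay below all 5 infant retinas, while mature retinas overlapped with both. The senile-to-infant log2 difference was -0.84 (SE 0.14, edgeR adjusted p = 0.00247), the mature-to-infant difference -0.48 (adjusted p = 0.118) and the senile-to-mature difference -0.35 (adjusted p = 0.4). Within the older version group infant retinas spanned 178 to 204 CPM and senile ones 119 to 167, and within the newer group the ranges were 247 to 263 and 120 to 133.

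The decrease of SCN3A was larger in ON BCs. In infant retinas 1 to 5, ON BCs held 238, 227, 195, 259 and 286 CPM. In mature retinas 1 to 5 they held 199, 149, 172, 154 and 136 CPM. In senile retinas 1 to 5 they held 113, 121, 113, 127 and 105 CPM. The senile values rest on 7 (Senile 2) to 190 (Senile 5) UMIs, the mature ones on 88 to 579 and the infant ones on 112 to 694. The infant retinas did not overlap with the senile ones, nor the mature with the senile ones, and the lowest infant value lay below the highest mature value. ON BCs fell by 1.18 from infancy to senescence (SE 0.15, edgeR adjusted p = 0.000189, beside 0.636% of all 7702 features called) and by 0.64 from infancy to maturity (SE 0.13, adjusted p = 0.0387, beside 0.467%). The first call was kept when any 1 retina was left out (adjusted p = 6.81e-05 to 0.00164), whereas the second was kept in 6 of 15 such fits. In OFF BCs the means were 178 ± 28.0, 137 ± 25.8 and 132 ± 21.5 CPM (SD, n = 5), and the senile-to-infant difference of -0.58 did not pass (adjusted p = 0.121, beside 0.748% of features called), nor did the differences from infancy to maturity and from maturity to senescence, beside 0.62% and 0.0214%.

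Whether SCN3A differed between cell types in its change with stage was tested by exact permutation of the stage labels over the within-retina difference, in a family of 6 such tests chosen after the stage values had been seen. Version group did not enter these permutations. ON BCs exceeded OFF BCs by 0.44 in infancy (0.31 to 0.53) and were lower by 0.17 in senescence (-0.46 to 0.14), a change of -0.61 (exact p = 0.00794, the smallest that 5 against 5 allows, adjusted p = 0.0476). BCs changed more than ACs by -0.45 (exact p = 0.0159, adjusted p = 0.0476). Against RGCs the difference was -0.59 (exact p = 0.0556, adjusted p = 0.0833) and against HCs -0.53 (exact p = 0.167, adjusted p = 0.167), neither past the threshold. The senile-to-infant differences of SCN3A in ACs, RGCs and HCs themselves were -0.32, -0.24 and -0.18, and none passed.

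Markers of other cells were also detected in the BC nuclei, and the medians of the cone and AC markers were higher at each later stage while the ranges overlapped. The summed level of the cone markers, 7 of 8 with UMIs, was 76.8 to 234 CPM in infant and 133 to 454 CPM in senile BCs, and that of the AC markers, 7 of 8 with UMIs, 251 to 435 and 229 to 662 CPM. The medians in infant, mature and senile retinas were 141, 178 and 309 CPM for the cone markers and 262, 394 and 471 CPM for the AC markers. Other sets had lower medians in mature and senile than in infant retinas, at 81.5, 51.5 and 60.8 CPM for the RGC markers and 840, 753 and 786 CPM for the Müller cell markers. The medians of older and newer retinas were 133 and 246 CPM for the cone markers and 435 and 267 CPM for the AC markers. The BC markers, 6 of 7 with UMIs, stood at 17494 to 20507 CPM in infancy and 15500 to 23740 CPM in senescence. ON BCs made up a median of 39.4% of the ON and OFF BC nuclei in infant retinas, 48.5% in mature and 34.8% in senile retinas, with a range of 29.0% to 51.5% over all. The part of these markers in the SCN3A result was not tested.

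**Figure D3:**
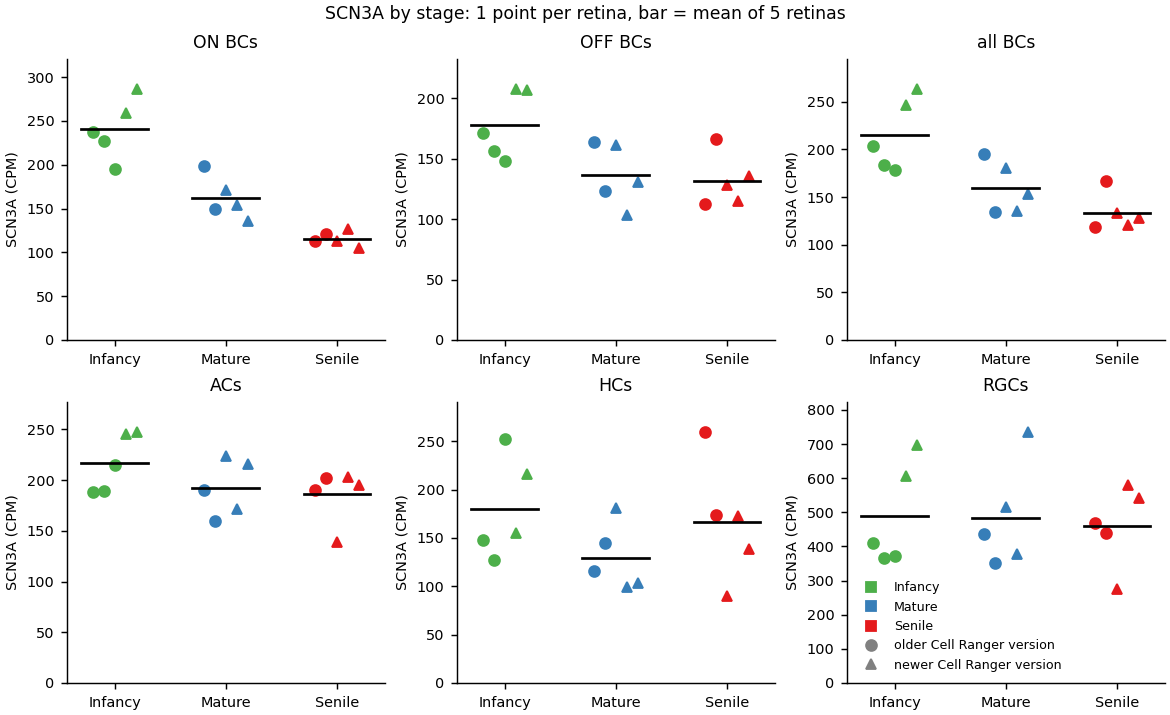
SCN3A in CPM by stage in ON BCs, OFF BCs, all BCs, ACs, HCs and RGCs, with 1 point per retina, shaped by Cell Ranger version group, and a bar at the mean of 5 retinas. In ON BCs the senile retinas lie between 105 and 127 CPM and the infant retinas between 195 and 286 CPM.

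SCN1A fell between infancy and maturity in ACs, at low counts. Infant retinas 1 to 5 had 8.41, 10.2, 14.6, 33.3 and 11.3 CPM. Mature retinas 1 to 5 had 5.31, 5.09, 6.57, 5.61 and 3.90 CPM. Senile retinas 1 to 5 had 11.3, 12.1, 8.0, 6.77 and 14.7 CPM. All mature retinas lay below all infant ones, Infancy 4 lay far above its group, and senile retinas overlapped with infant ones. These levels rest on 13 to 177 UMIs per retina. The log2 difference between mature and infant retinas was -1.64 (SE 0.34, edgeR adjusted p = 0.0314), and without Infancy 4 it was -1.06 and did not pass (adjusted p = 0.16). The call was lost in 7 of 15 fits that left out 1 retina, those without Infancy 3 or 4 or any 1 of the mature retinas. The senile-to-infant difference was -0.67 and did not pass (adjusted p = 0.604).

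The SCN1A result depended on how the numbered copies were treated. With SCN1Ali1 and SCN1Ali2 added to SCN1A, the mature-to-infant difference in ACs was 0.19 (edgeR adjusted p = 0.421), in the opposite direction. SCN1A held 16.2% of the UMIs of these 3 features in ACs of Infancy 4 and 1.61% to 7.21% in the other retinas. SCN1Ali2 alone differed by 0.29 (adjusted p = 0.267). The antisense feature of SCN1A was also highest in Infancy 4, at 11.7 CPM in ACs against 1.68 to 7.39 CPM in the other infant retinas, and its part in the SCN1A value was not tested. In BCs and RGCs the mature-to-infant differences of SCN1A were -1.41 and -0.81 and did not pass (adjusted p = 0.132 and 0.54).

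**Figure D4:**
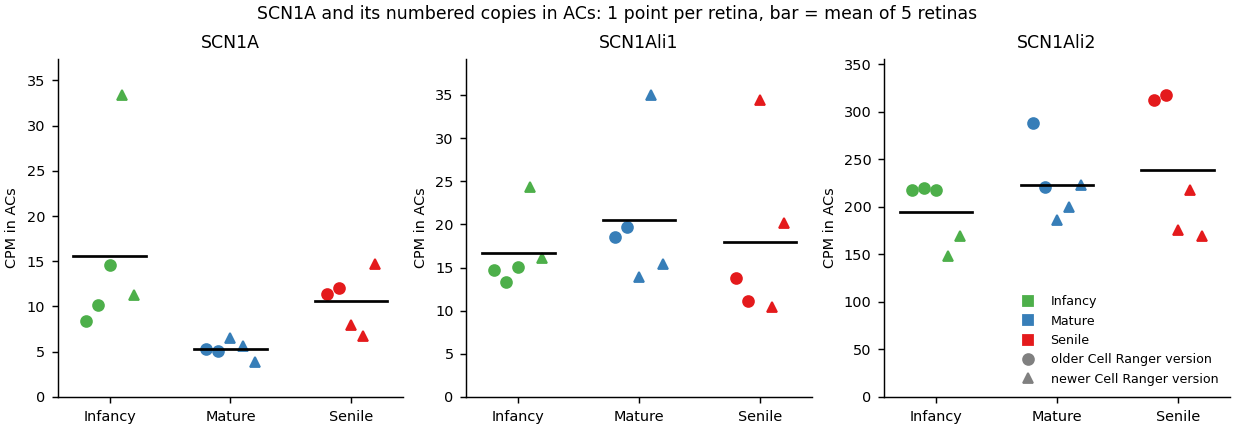
SCN1A, SCN1Ali1 and SCN1Ali2 in ACs in CPM by stage, with 1 point per retina, shaped by Cell Ranger version group, and a bar at the mean of 5 retinas. SCN1A in mature retinas spans 3.90 to 6.57 CPM, below all infant retinas, of which Infancy 4 stands at 33.3 CPM, and SCN1Ali2 shows no such separation.

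For the other genes no stage difference passed. In RGCs, SCN2A, SCN3A, SCN8A and SCN9A differed between senile and infant retinas by -0.22, -0.24, -0.11 and 0.14 on the log2 scale. SCN9A in ACs reached 0.73 (adjusted p = 0.473), and SCN8A in rods, between mature and infant retinas, 0.76 (adjusted p = 0.344).

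Genes that work beside the channels were taken from 3 lists. Ankyrins and other genes of the axon initial segment and node, intracellular FGF proteins that bind the channel's tail, and genes of channel turnover and sodium leak gave 131 tests per stage contrast over the classes. Of these, 0 passed between mature and infant retinas, 1 between senile and infant and 0 between senile and mature by edgeR (15, 16 and 14 at an unadjusted p under 0.05). The 1 gene was FGF14, an intracellular FGF of the initial segment, which rose in Müller cells by 1.06 (SE 0.20, adjusted p = 0.0104), beside 0.877% of all features in that class. Of the other sodium channel genes, SCN7A had 209 UMIs over all barcodes, SCN11A 24, SCN10A 4 and SCN4A 3, and none of these 4 had enough counts to be tested within a class.

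The genes also differed between Cell Ranger version groups within classes, by up to 2.44 on the log2 scale against 1.64 among the stage calls. Between newer and older groups, 13 of 40 tests within classes passed, 3 higher and 10 lower in the newer group, and 4 of 7 genes were lower in whole retinas. The share of all features that passed was 27.5% in ACs, 21.2% in RGCs, 19.9% in BCs, 10.3% in HCs, 26.9% in cones, 20.5% in Müller cells, 4.14% in rods, 4.81% in astrocytes, 4.84% in microglia and 35.7% in whole retinas. Newer retinas held 18440752 to 58734300 UMIs and older ones 13429873 to 30034007, and the part of depth in the difference was not tested. The groups also differed in RGCs, with 36 to 249 RGC nuclei per newer and 463 to 709 per older retina. In whole retinas the RGC markers had medians of 146 CPM in newer and 444 CPM in older ones. The part of class makeup in the whole-retina differences was not tested.

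SCN2B and SCN3B were lower in newer retinas in most classes where they were tested. SCN2B in RGCs had a lowest, median and highest level of 53.5, 104 and 163 CPM in the 7 older retinas and of 8.79, 16.0 and 37.4 CPM in the 8 newer ones. The groups did not overlap, and the difference was -2.44 (SE 0.29, edgeR adjusted p = 0.00013). In ACs SCN2B was at 21.2 to 50.1 CPM in older and 4.31 to 12.9 CPM in newer retinas (-2.41, adjusted p = 2.95e-05), again without overlap. SCN3B was lower by 0.85 in RGCs, 1.05 in BCs, 1.28 in ACs, 1.51 in HCs and 1.57 in Müller cells, each past the threshold. In microglia, where it was not tested, the newer mean was the higher one, as given above. Thus the SDs of the beta genes over 15 retinas given above hold this difference. Senile 3 stood apart from the newer group. In whole retinas it had 20.0 CPM of SCN2B, against 3.43 to 5.86 CPM in the other newer retinas and 17.1 CPM in the older Senile 1. Its SCN3B level was 59.9 CPM, against 18.6 to 33.6 CPM in the other newer retinas. Why Senile 3 differed was not tested.

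SCN9A and SCN3A were higher in newer retinas in cones, and SCN9A also in RGCs. SCN9A in cones was at 0.604 to 4.55 CPM in older and 2.41 to 21.7 CPM in newer retinas, a difference of 2.42 (SE 0.45, edgeR adjusted p = 0.00155), and in RGCs it was higher by 0.82 (adjusted p = 0.0314). SCN3A in cones was higher by 1.68 (adjusted p = 0.00441). The part of RNA carried over from other cells in these cone levels was not tested. In Müller cells the same difference was -0.82 for both SCN3A (adjusted p = 0.105) and SCN9A (adjusted p = 0.213), and SCN3A stood at -0.11 in HCs and -0.16 in whole retinas, none past the threshold. SCN2A was lower by 0.34 in RGCs (adjusted p = 0.0171), and SCN8A by 0.69 in Müller cells (adjusted p = 0.0481). In BCs, where SCN3A fell with stage, its version difference over all stages was not past the threshold. Its means in older and newer retinas were 189 and 255 CPM in infant, 165 and 156 CPM in mature and 143 and 127 CPM in senile BCs. Version differences within a stage were not tested.

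**Figure D5:**
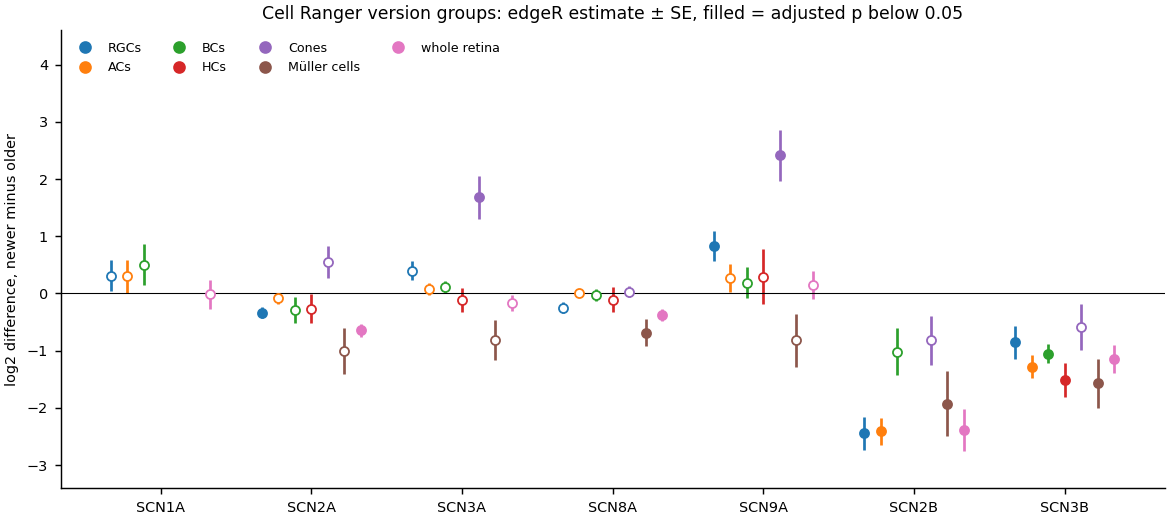
Log2 difference between the newer and older Cell Ranger version groups (edgeR estimate with its SE as the bar) for each sodium channel gene, with 1 coloured point per class and for the whole retina, filled where adjusted p was below 0.05. SCN2B stands near -2.4 in RGCs, ACs and the whole retina, and SCN9A in cones at 2.42.

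The pattern of each gene over classes and retinas was set beside those of 9103 named genes, over 134 sums of a class in a retina, which share libraries and depth, so the coefficients describe and carry no test. SCN3A was most like PCSK2 (Pearson r = 0.88), a prohormone convertase, followed by PRUNE2 and HECW1. SCN2A was most like ADAM23 (0.85), GABRA2 (0.85), a GABA-A receptor subunit, and CHRNB3 (0.84), a nicotinic receptor subunit. SCN8A was most like ELMOD1 (0.82), GRIA2 and STXBP5L, and SCN9A most like CSMD3, KCNH5 and PCSK2. SCN1A led with PCDH11X (0.72), SCN2B with ATP1B1 and SCN3B with TANC2. Among the sodium channel genes themselves SCN2A and SCN3A reached 0.78 and SCN3A and SCN9A 0.70, while SCN3B and SCN8A were at 0.02.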

How the data were processed

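The authors thawed frozen retinas, isolated nuclei, ran Cell Ranger against the TS_3.0 assembly and deposited raw UMI counts per feature and called barcode, without normalization. The methods name 1 version, per the labels it is 5.0.1 or 7.0.1, and per the file headers 6.1.2 or 7.0.1. Whether intronic reads were counted is not given in the sources used here, and the program's default differs between versions. Its part in the version difference was not tested.

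Of 120437 barcodes, the 119765 that had over 200 but below 6000 detected genes and a mitochondrial share below 5% passed, and 7940 doublets were removed by their share of simulated neighbours, in proportion to the nuclei of the library (seed 1). A nucleus took the class whose markers led its scaled marker score by 0.3, with at least 3 own markers detected (2 for HCs), and 6544 nuclei lay within 0.1 of that margin. These thresholds were set after marker counts had been seen. A retina entered a class from 10 nuclei on. The 8 genes, the gene lists and the tests were chosen with earlier results of these data known. Each of the 8 genes is named, with list genes past an adjusted p of 0.05 in a stage contrast. Per gene, the 3 named genes of highest Pearson correlation that reached 10 CPM in some class are given. List genes that passed between version groups are not named.

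Sums of counts for each class of each retina were tested with edgeR 4.0.16 (TMM, filterByExpr, glmQLFit, glmQLFTest; limma 3.58.1, R 4.3.3) in 1 model of 3 stages and version group. The log2(CPM + 1) differences of classes or subtypes inside a retina were tested by exact sign flips (2-sided) over features with a mean of at least 2 CPM in the pair. The planned adjustment over pairs of the genes alone was replaced by one over all features, with the same 19 subtype calls. Intervals between retinas cover the spread of samples, and single counts counting error only. No column was left unused (0). Tests of ON and OFF BCs by stage, of values within version groups, of GABAergic starburst nuclei alone and of differences between classes were chosen after seeing the data. DESeq2 1.42.0, igraph 0.11.9, scikit-learn 1.9.0, pandas 2.3.3, scipy 1.17.1, numpy 2.4.6 and Python 3.11.15 were also used, and the tests were tried on simulated data. Alternatives covered normalization, filters, margins, doublets, clusters, copies, covariates and single retinas.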

Additional observations from a re-analysis of the deposited data

Results flagged for a closer look

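In 8 of 100 combinations of gene, class and stage with 5 retinas and a mean of at least 20 UMIs, 1 retina lay far from the other 4 by Dixon's test, which chance does in about 1 of 20 groups. SCN1A in Infancy 4 was at 33.3 CPM in ACs (8.41 to 14.6 in the other infant retinas), 25.4 CPM in BCs (7.21 to 8.60) and 48.4 CPM in RGCs (13.5 to 23.4). The antisense feature of SCN1A was also highest there among infant retinas, at 57.3 CPM in RGCs. SCN2A in HCs of Senile 1 was at 165 CPM (94.6 to 99.3). SCN3A in ACs of Senile 3 was at 139 CPM (190 to 203). SCN3B in cones of Mature 1 was at 11.4 CPM (5.60 to 5.95). In HCs of Mature 4, SCN8A was at 73.0 CPM (170 to 203) and SCN9A at 20.4 CPM (53.2 to 64.2). HCs had the fewest nuclei of the neuron classes beside rods.

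The log2 change of a gene with stage differed between classes in 3 tests by exact permutation with an adjusted p of 0.0476 each over 6 tests, which were chosen after the values had been seen. These were SCN3A from infancy to senescence, where BCs changed more than ACs by -0.45 and ON BCs more than OFF BCs by -0.61, and SCN1A from infancy to maturity, where ACs changed more than RGCs by -0.67. For SCN1A the change of ACs against BCs was -0.29 and did not pass (exact permutation p = 0.143, adjusted p = 0.167).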

How the results depend on the processing

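Over all results and alternatives, 815 values kept their direction and side of the threshold or stayed near their value, 22 dropped below the threshold, 13 rose above it, 13 moved and 2 reversed. The 2 stage calls within classes became 4 without a filter on low counts, and 1 each with stage only in the model, with a replicate block in place of version, with the copies added to SCN1A and with a stricter margin. Leaving out 1 retina gave 1 to 2 calls. In whole retinas the count of 0 became 1 with DESeq2 and 1 without the filter, and stayed 0 without any 1 retina. Adding the copies reversed the SCN1A difference in ACs between mature and infant retinas to 0.19. The cause was not tested.

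In the 7 older retinas alone, where the smallest exact p is 0.0156, the step from the highest to the next class no longer passed and was 0.90 (SCN1A), 1.56 (SCN2A), 1.08 (SCN3A), 1.00 (SCN8A), 0.47 (SCN9A), 1.52 (SCN2B), 0.50 (SCN1Ali1) and 1.41 (SCN1Ali2), fewer samples being the construction. For SCN3B the step from microglia to ACs reversed to -0.95. In the newer retinas SCN1Ali1 was at 0.19 and did not pass. Without 1 retina these steps were 0.88 to 0.98 (SCN1A), 1.37 to 1.43 (SCN2A), 1.19 to 1.26 (SCN3A), 0.80 to 0.85 (SCN8A), 0.78 to 0.87 (SCN9A), 1.32 to 1.40 (SCN2B), 0.04 to 0.45 (SCN3B), 0.30 to 0.38 (SCN1Ali1) and 1.19 to 1.25 (SCN1Ali2), and 19 to 21 subtype calls were made. SCN3A in BCs between senile and infant retinas ranged from -0.90 to -0.75 without 1 retina. Between mature and infant retinas it passed with DESeq2 (-0.50), with clusters (-0.54) and without Mature 1 (-0.61).

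Replicate numbers did not pair the retinas: the correlation of deviations between same-numbered retinas ranged from -0.45 to 0.55, and 5 of 15 retinas correlated best with their own number. With the replicate block SCN3A in BCs was at -0.82 (edgeR adjusted p = 0.0181) and SCN1A in ACs at -1.51 (adjusted p = 0.111). Depth limits SCN1A and SCN2B in most classes and all genes in microglia and astrocytes, where at most 1 gene was tested.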
